A study of Mus musculus with 13 samples.

Results

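The cytochrome P450 families Cyp2, Cyp3a and Cyp4 and the UDP-glucuronosyltransferase families Ugt1 and Ugt2 were followed through maps of contact with pericentromeric heterochromatin. The members are the protein-coding genes of the GENCODE vM1 annotation (mouse build mm9) on autosomes whose symbols start with Cyp2, Cyp3a, Cyp4, Ugt1 or Ugt2, leaving out the Cyp20, Cyp21, Cyp24, Cyp26, Cyp27, Cyp39 and Cyp46 types. The rule finds 94 genes among 21397 that could be placed, with 50 in Cyp2, 9 in Cyp3a, 17 in Cyp4, 9 in Ugt1 and 9 in Ugt2. Cyp2d37-ps and Cyp2j7-ps carry the symbols of pseudogenes but are protein-coding in this annotation and were kept.

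P450 enzymes are heme monooxygenases of the endoplasmic reticulum that insert oxygen into drugs, fatty acids, steroids and vitamin D. Glucuronosyltransferases then attach glucuronic acid, which makes bilirubin, steroids and drug metabolites soluble enough to be excreted. Both kinds of enzyme are best known from liver, gut, kidney and olfactory mucosa, and most of their genes stand in tandem arrays that arose by duplication.

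The maps come from sat4C, a 4C method that reads out which DNA was ligated to the major satellite repeat and so lay close to a chromocenter, the nuclear body in which mouse pericentromeres gather. Thymus was taken from 3 adult male C57BL/6 mice, each with reads from a GAII and a HiSeq instrument, while the embryonic stem cells (ESCs, 3 replicates), neural precursor cells (NPCs, 2 replicates) and astrocytes (ACs, 2 replicates) are untreated cultures of the IB10 line (129/ola), the NPCs derived from the ESCs and the ACs from the NPCs. The processed file states, for 399232 fragment ends, whether the replicates together were called a pericentromere-associated domain (PAD) or not (non-PAD). There is 1 column of calls for each cell type and no read count or expression value, so depth is unknown, no replicate spread or test can be given, and the cell type labels could not be checked against markers.

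Thymus differs from the cultures in strain, tissue, culture and instrument (GAII and HiSeq, against HiSeq only) at once, and these cannot be told apart. With 2 replicates each, NPC and AC calls could tie and then rested on pooled reads. All 3 cultured types come from a single cell line. The NPC calls are the widest, with 69.4% of all placed genes in PADs, and counts are therefore also given without them.

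The P450 and glucuronosyltransferase genes were called PAD more often than the average gene in each of the 4 cell types, most of all in ACs. Of the 94 genes, 69 lay in PADs in ESCs (73.4%), against 46.6% of all placed genes. In NPCs the count was 75 (79.8%, against 69.4%), in ACs 66 (70.2%, against 34.9%) and in thymus 44 (46.8%, against 25.8%). The genes are not independent of each other, because 85 of them fall into 9 clusters with gaps under 500 kb and only 9 stand alone. In PADs there were 64 clustered genes in ESCs, 69 in NPCs and 63 in ACs, with 43 in thymus. Their shares of 75.3%, 81.2%, 74.1% and 50.6% were all above those of all genes. In the same order, 5, 6, 3 and 1 of the 9 solitary genes were PAD. Those shares were 55.6%, 66.7%, 33.3% and 11.1%, above the share of all genes in ESCs only.

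The families differ in how far they account for these counts. All 9 Ugt1 and all 9 Ugt2 genes were PAD in every cell type, as were 8 of the 9 Cyp3a genes. Of the 50 Cyp2 genes, 33 were PAD in ESCs (66.0%), 33 in NPCs (66.0%) and 24 in ACs (48.0%), with 17 in thymus (34.0%). The NPC share was below the 69.4% of all genes, and the others were above the shares of all genes in the same cell types. The Cyp4 genes gave the widest contrast. In PADs were 10 of 17 in ESCs (58.8%), 16 in NPCs (94.1%) and 16 in ACs (94.1%). In thymus only Cyp4v3 was PAD (5.88%, against 25.8% of all genes). With each of the 18 loci left out in turn, the share of members in PADs stayed between 70.6% and 81.2% in ESCs, 77.6% and 93.8% in NPCs, 67.1% and 76.5% in ACs, and 41.2% and 51.8% in thymus.

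**Figure D1:**
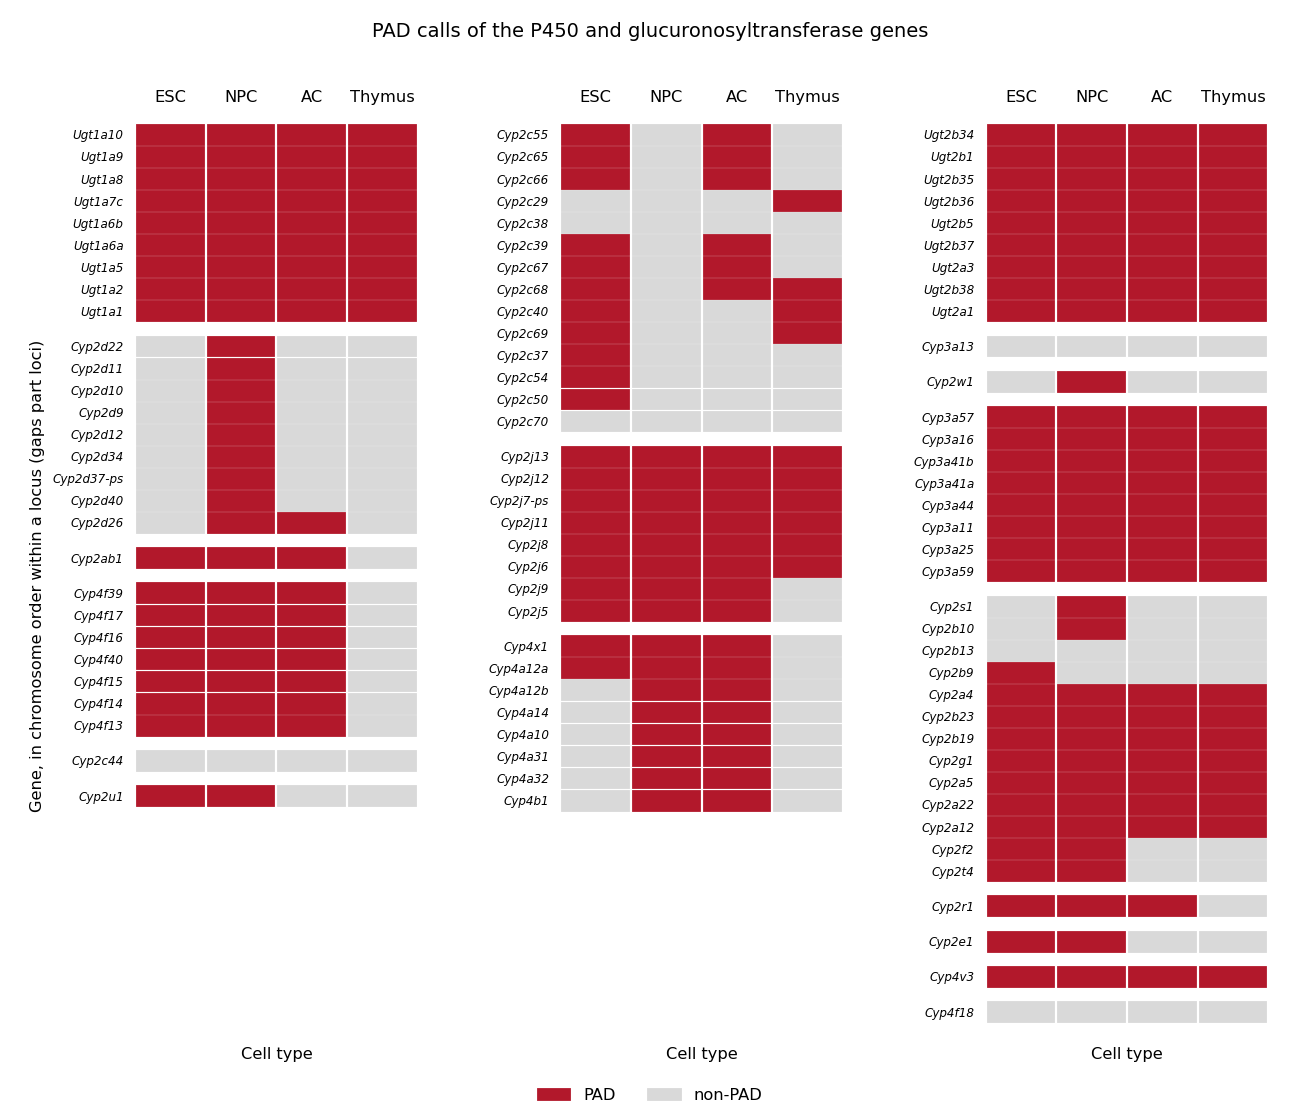
Calls of the 94 genes (rows, in chromosome order, with gaps between the 18 loci) in ESC, NPC, AC and Thymus (columns), with PAD in red and non-PAD in grey. The Ugt1, Ugt2 and Cyp3a blocks are red throughout, whereas the Cyp2c block, which is grey in NPCs, changes call several times along its length in the other cell types.

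Calls shared by all cell types were mostly PAD calls. In total 46 genes (48.9%, against 34.5% of all genes) had the same call in the 4 cell types. Of these, 40 were PAD throughout (42.6%, against 14.8%) and 6 were non-PAD throughout (6.38%, against 19.8%). Without the NPC calls, 58 genes (61.7%) had the same call in the remaining 3 cell types, which is close to the 61.3% of all genes. The 6 genes outside PADs everywhere were Cyp2c38, Cyp2c70, Cyp2c44, Cyp3a13, Cyp2b13 and Cyp4f18.

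The genes around the clusters were in PADs less often than the clustered members in ESCs, ACs and thymus, and more often in NPCs. Of 188 other protein-coding genes within 500 kb of a cluster, 64.4% were PAD in ESCs, beside 75.3% of the 85 clustered members. In ACs the shares were 43.6% and 74.1%, in thymus 24.5% and 50.6%, and in NPCs 86.2% and 81.2%. Around the 9 solitary genes, 213 other genes were PAD in 50.2% in ESCs, 61.0% in NPCs and 18.3% in ACs, with 4.69% in thymus. Over all 401 other protein-coding genes within 500 kb of a locus, 56.9% were PAD in ESCs, 72.8% in NPCs and 30.2% in ACs, with 14.0% in thymus. In ACs this pooled share lay below the 34.9% of all genes, whereas that around the clusters lay above it. Another 15 genes lie between members of a cluster, and 11 of these were PAD in ESCs, 15 in NPCs and 11 in ACs, with 6 in thymus.

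**Figure D2:**
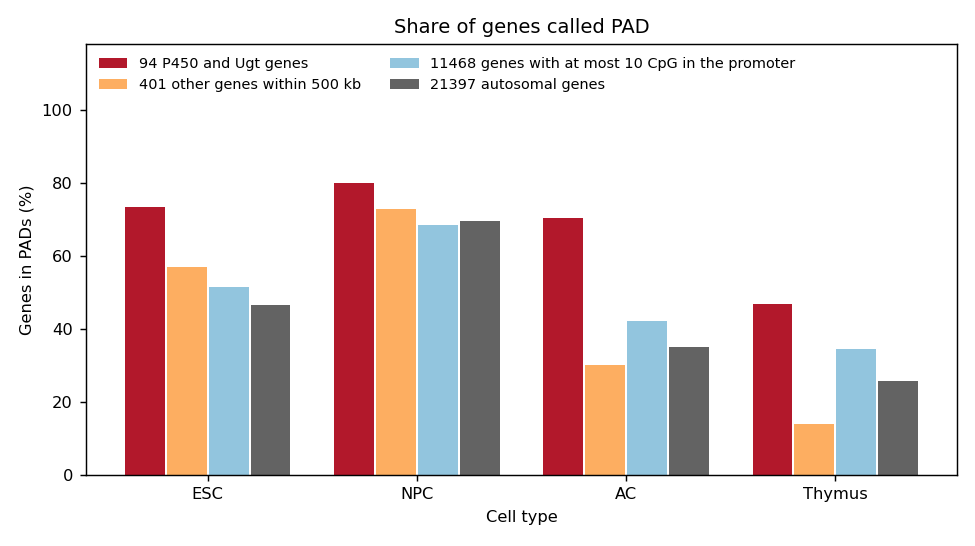
Percentage of genes called PAD (vertical axis) in each cell type for the 94 members, the 401 other genes within 500 kb of them, the 11468 autosomal genes with at most 10 CpG in the promoter, and all 21397 autosomal genes. The members have the tallest bar in every cell type, at 73.4%, 79.8%, 70.2% and 46.8%. There are no replicate columns, so no error bars can be drawn.

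The 9 Ugt1 genes share their last exons and differ in their first ones, so they occupy overlapping stretches of chr1:89951963-90116577 and are in effect a single locus of 164.6 kb. Ugt1a1, the enzyme that conjugates bilirubin, and Ugt1a6a, which conjugates simple phenols, both lie in it. All 21 fragment ends of the locus were PAD in the 4 cell types. The surrounding PAD was 2768 kb long in ESCs, 1219 kb in NPCs, 2043 kb in ACs and 693.5 kb in thymus, where it reached from Atg16l1 to Trpm8. The thymus borders lay 349.2 kb before Ugt1a10 and 179.7 kb after Ugt1a1, the closest of any cell type on either side. Counted as a single gene, Ugt1 would lower the members' share in thymus to 41.9%.

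The Ugt2 cluster at chr5:87318792-87919896 runs from Ugt2b34 to Ugt2a1, an olfactory enzyme, and includes the steroid- and drug-conjugating Ugt2b1 and Ugt2b5 as well as Ugt2a3. All of its 98 fragment ends were PAD in every cell type. The PAD around it measured 5423 kb in ESCs, 2854 kb in NPCs, 6608 kb in ACs and 12490 kb in thymus. The thymus PAD, from Lphn3 to Adamts3, was the longest of the 8 thymus PADs that hold members. The nearest border within 500 kb was found in NPCs only, 387.1 kb before Ugt2b34. Sult1b1, Sult1d1 and Sult1e1, sulfotransferase genes directly beside the cluster, were PAD in all 4 cell types too.

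The Cyp3a cluster at chr5:146106148-146924861 (Cyp3a57 to Cyp3a59, 8 genes) was PAD in all cell types over all 88 of its fragment ends. It holds Cyp3a11, the major drug-oxidizing Cyp3a enzyme of adult mouse liver. The cluster spans 818.7 kb and took up most of its PAD in ESCs, ACs and thymus, though not in NPCs. In ESCs the PAD was 885.7 kb long and contained the 8 Cyp3a genes and no other protein-coding gene. It was 994.3 kb long in ACs with 10 genes, 1102 kb in thymus with 11 genes and 1772 kb in NPCs with 26 genes, and in each of them Cyp3a57 was the first gene.

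The left border was close to the same place in the 4 cell types. It lay 11.67 kb before Cyp3a57 in ESCs, 7.916 kb in NPCs, 27.97 kb in ACs and 16.39 kb in thymus, so the 4 positions fall within 20.05 kb of each other. The right border was spread more widely, at 55.29 kb after Cyp3a59 in ESCs, 147.6 kb after it in ACs and 266.7 kb in thymus, with no border within 500 kb in NPCs. Only 9.17% of the fragment ends in the 500 kb on either side were PAD in ESCs, 20.8% in ACs and 37.5% in thymus, against 55.0% in NPCs.

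The left border is defined by a few restriction sites between genes, and the 60 bases (mm9, plus strand) at those ends are shown because the calls of ESCs, NPCs and thymus turn from non-PAD to PAD between them. The capitals mark the MfeI (CAATTG) or NlaIII (CATG) site at which the end starts. The second sequence is the first PAD end in thymus and the last non-PAD end in ESCs, the third is the first PAD end in ESCs and the last non-PAD end in NPCs, and the last is the first PAD end in NPCs.
Cyp3a left end chr5:146088696-146088755: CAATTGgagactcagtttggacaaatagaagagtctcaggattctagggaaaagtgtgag
Cyp3a left end chr5:146090811-146090870: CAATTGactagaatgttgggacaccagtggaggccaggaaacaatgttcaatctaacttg
Cyp3a left end chr5:146098144-146098203: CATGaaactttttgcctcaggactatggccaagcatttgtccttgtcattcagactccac
Cyp3a left end chr5:146098318-146098377: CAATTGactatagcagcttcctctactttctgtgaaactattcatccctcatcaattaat

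Cyp3a41a and Cyp3a41b, near-identical copies, contain no listed fragment end and were called from ends 19.48 and 18.78 kb away. The ninth gene of the family, Cyp3a13, stands apart on the same chromosome at chr5:138334160-138362847 and was non-PAD in every cell type. The border of a PAD lay only 3.806 kb beside the gene in ESCs and 5.282 kb in NPCs, so it stood at the edge of a non-PAD there, while in ACs and thymus the nearest border to its midpoint was 1442 and 4281 kb away.

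The Cyp2c cluster at chr19:39081509-40261823 holds 14 genes, many of them epoxygenases or hydroxylases of fatty acids, steroids and drugs, and had the most borders inside it. Over the 4 cell types there were 3 borders in ESCs, 3 in ACs and 4 in thymus, and 0 in NPCs. NPCs had none of the genes in a PAD, although NPCs have the most PAD calls elsewhere. In NPCs all 141 fragment ends of the cluster were non-PAD and lay in a single non-PAD of 3827 kb. ESCs had 11 of the 14 genes in PADs, ACs had 6 and thymus had 4.

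In ESCs a PAD of 628.2 kb covered Cyp2c55, Cyp2c65 and Cyp2c66, a non-PAD of 201.8 kb covered Cyp2c29 and Cyp2c38, and a PAD of 702.4 kb covered the 8 genes from Cyp2c39 to Cyp2c50. Cyp2c70, a bile acid hydroxylase, lay beyond it in a non-PAD. In ACs the first 3 genes were again PAD and Cyp2c29 and Cyp2c38 again non-PAD. The second AC PAD was shorter than in ESCs, at 237.1 kb, and held Cyp2c39, Cyp2c67 and Cyp2c68 only. Thymus differed from both, with a PAD of 198.9 kb that held Cyp2c29 alone and a PAD of 165.8 kb that held Cyp2c68, Cyp2c40 and Cyp2c69. Cyp2c68 was the gene of this cluster that was PAD in ESCs, ACs and thymus alike.

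ESCs and ACs had a border in the same place, 39329009, inside an intron of Cyp2c29, an arachidonic acid epoxygenase. The sequences show the pair of MfeI ends (mm9, plus strand, sites in capitals) between which both cell types turned from PAD to non-PAD, 0.123 kb apart.
Cyp2c29 last PAD end chr19:39328947-39329006: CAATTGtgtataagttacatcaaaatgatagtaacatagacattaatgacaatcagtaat
Cyp2c29 first non-PAD end chr19:39329070-39329129: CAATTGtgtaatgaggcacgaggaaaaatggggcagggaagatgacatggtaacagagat

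Of the 18 fragment ends inside Cyp2c29, 11.1% were PAD in both ESCs and ACs, none in NPCs and 100% in thymus. Its annotated transcript is long, and by its start site in place of its midpoint the gene was PAD in ESCs as well. It is the sole member that was non-PAD in ESCs and PAD in thymus (1.06%, against 5.86% of all genes), so the count in that direction became 0 with start sites. The thymus PAD over Cyp2c68, Cyp2c40 and Cyp2c69 rests on 11 fragment ends, and its last border was set in a gap of 47.51 kb without a listed end. Cyp2c69 was called from an end 17.46 kb from its midpoint. Borders were found inside Cyp2c29, Cyp2c38, Cyp2c68, Cyp2c69 and Cyp2c70 in at least 1 cell type.

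The cluster of Cyp2a, Cyp2b, Cyp2f, Cyp2g, Cyp2s and Cyp2t genes at chr7:26587494-27943687 (13 genes) was divided in all 4 cell types, but around a shared core. Cyp2a4, Cyp2b23, Cyp2b19, Cyp2g1, Cyp2a5, Cyp2a22 and Cyp2a12 were PAD in every cell type. They include Cyp2a5, which oxidizes coumarin and nicotine, the olfactory Cyp2g1 and the keratinocyte Cyp2b19. The genes on either side of this core changed. Cyp2s1 and the inducible Cyp2b10, a target of the receptor CAR, were PAD in NPCs only, Cyp2b13 in no cell type and Cyp2b9 in ESCs only. At the other end, Cyp2f2, an enzyme of airway club cells, and Cyp2t4 were PAD in ESCs and NPCs and non-PAD in ACs and thymus.

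In ACs the core PAD was 913.7 kb long and in thymus 834.1 kb, each with 12 protein-coding genes, and no fragment end in the 500 kb on either side of the cluster was PAD. In ESCs the PAD extended to 3984 kb and in NPCs to 4148 kb. The left border lay inside Cyp2b9 in 3 cell types, at 26987881 in NPCs and ACs and at 26985863 in thymus, 2.018 kb apart, whereas in ESCs it lay 63.02 kb before Cyp2b9 at 26895412. The thymus border fell between a pair of ends in a coding exon of Cyp2b9 whose starts are 0.031 kb apart (mm9, plus strand). They are shown because the second of them is also the last non-PAD end of NPCs and ACs. The first sequence runs through the MfeI site at which the second starts (there in lower case), so the pair shares a single MfeI site.
Cyp2b9 last non-PAD end in thymus chr7:26985847-26985906: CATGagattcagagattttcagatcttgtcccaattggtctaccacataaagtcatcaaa
Cyp2b9 first PAD end in thymus chr7:26985878-26985937: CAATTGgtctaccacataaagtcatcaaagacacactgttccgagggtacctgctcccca

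The right border lay in wider gaps between listed ends than the left in ACs and thymus. In ACs it lay 3.341 kb before Cyp2f2. In thymus it fell on Cyp2a12 itself, but in the middle of 60.02 kb without a listed end, and the gene was called from an end 27.96 kb away. Cyp2a4 and Cyp2b10 were also far from a listed end, at 31.27 and 30.41 kb.

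**Figure D3:**
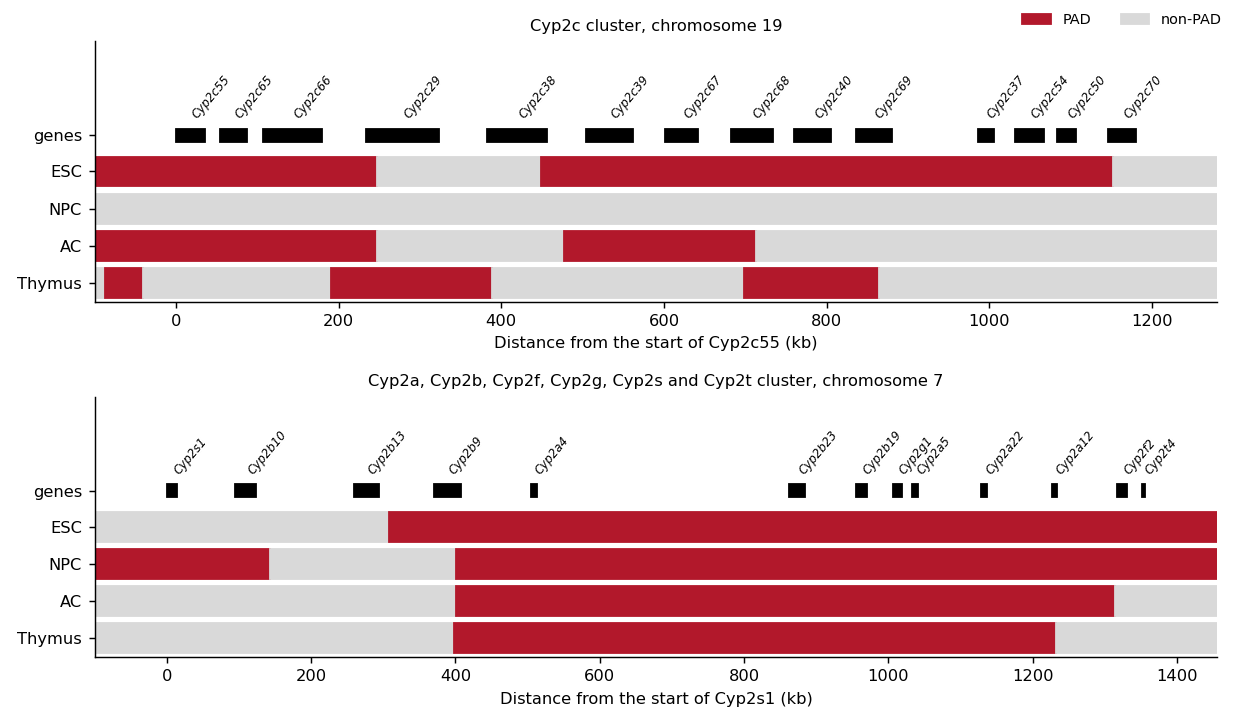
PAD (red) and non-PAD (grey) calls in ESC, NPC, AC and Thymus along the Cyp2c cluster and the Cyp2a to Cyp2t cluster, with genes as black bars and the distance in kb from the start of Cyp2c55 or Cyp2s1 on the horizontal axis. In the upper panel ESC and AC turn at the same point inside Cyp2c29, and in the lower panel NPC, AC and Thymus turn inside Cyp2b9 while the PAD over Cyp2a4 to Cyp2a12 is common to all.

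The Cyp2j cluster at chr4:95694225-96330845 holds epoxygenases of polyunsaturated fatty acids, 8 genes from Cyp2j13 to Cyp2j5. All were PAD in ESCs, NPCs and ACs, over 100% of 89 fragment ends. In thymus a border at 96225059, between Cyp2j6 and Cyp2j9, left Cyp2j9 and the kidney and liver gene Cyp2j5 in a non-PAD of 343.6 kb, and 80.9% of the ends of the cluster were PAD. The border lay 4.707 kb after Cyp2j6 and 10.06 kb before Cyp2j9, between listed ends 0.998 kb apart.

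The Cyp2d cluster at chr15:82200958-82624675 showed the opposite of the Cyp2c cluster in NPCs. Its 9 genes, from Cyp2d22 to Cyp2d26, were PAD in NPCs over all 56 fragment ends and, with a single exception, non-PAD elsewhere. A PAD call in NPCs only was the most common pattern over all genes, with 5213 of them (24.4%). It was found in 11 members (11.7%), among them Cyp2w1, Cyp2s1 and Cyp2b10. Cyp2d26 was PAD in ACs, in a PAD of 80.59 kb with 14 fragment ends whose border lay 0.069 kb from the gene. No fragment end lies inside Cyp2d26, and its call came from an end 2.110 kb from the midpoint. The non-PAD around the cluster was 1137 kb long in ESCs but 7309 kb in ACs and 15260 kb in thymus. In NPCs the PAD was 4156 kb long, and 29 of 29 flanking genes were PAD too.

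The Cyp4 genes, most of which encode fatty acid omega-hydroxylases, form 2 clusters that were PAD in ACs and not in thymus. The Cyp4f cluster at chr17:32605404-33084347, 7 genes from Cyp4f39 to Cyp4f13, was PAD over all 69 fragment ends in ESCs, NPCs and ACs and over 0 of them in thymus. It contains Cyp4f14, which oxidizes leukotrienes and vitamin side chains. The PAD was 2277 kb in ESCs, 3931 kb in NPCs and 1577 kb in ACs, and the thymus non-PAD was 9378 kb. A thymus PAD began 147.3 kb after Cyp4f13, so 12 of 27 flanking genes were PAD in thymus while the cluster was not.

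The other cluster, chr4:114778928-115320322, runs from the brain gene Cyp4x1 through the Cyp4a genes, targets of the lipid-sensing receptor PPAR alpha, to the lung gene Cyp4b1. All 8 genes were PAD in NPCs and ACs and non-PAD in thymus, where the non-PAD was 7074 kb long. In ESCs a border at 115065403 divided the cluster, with Cyp4x1 and Cyp4a12a in a PAD of 576.6 kb. Cyp4a12b, Cyp4a14, Cyp4a10, Cyp4a31, Cyp4a32 and Cyp4b1 lay on the other side, in a non-PAD of 591.9 kb. The AC PAD of 7097 kb and the thymus non-PAD covered the same genes, Gm12824 to Gm12886, so the 139 genes of this block had opposite calls in the 2 cell types. Fragment ends were sparse in the cluster, at 88.7 per Mb, and Cyp4b1 was called from an end 16.82 kb away.

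The 9 solitary genes spanned the whole range of patterns. Cyp4v3, a fatty acid hydroxylase known from the eye, at chr8:46391155-46418570, was PAD in the 4 cell types, in PADs of 3016 to 4461 kb. Cyp2r1, which hydroxylates vitamin D, and Cyp2ab1 were PAD in ESCs, NPCs and ACs and non-PAD in thymus. For Cyp2r1 the thymus non-PAD was 27560 kb, the longest domain around any member in any cell type.

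Cyp2e1, which oxidizes ethanol and acetaminophen, and Cyp2u1, a fatty acid hydroxylase, were PAD in ESCs and NPCs and non-PAD in ACs and thymus. Cyp2e1, at chr7:147949638-147960874, lay 646.1 kb inside its PAD in ESCs and 724.5 kb in NPCs. In ACs a border lay 19.47 kb before the gene. Cyp2w1 was PAD in NPCs only, from an end 16.28 kb away. Cyp2c44, an epoxygenase, and Cyp4f18, a leukotriene hydroxylase of neutrophils, were non-PAD in every cell type, and so was Cyp3a13.

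Of the 69 members that were PAD in ESCs, 26 were non-PAD in thymus (37.7%), a smaller share than the 57.3% of all genes PAD in ESCs. As a share of all 94 members they made up 27.7%, against 26.7% of all genes, since more members than other genes were PAD in ESCs. They comprise the 7 Cyp4f genes, Cyp4x1, Cyp4a12a, Cyp2j9, Cyp2j5, Cyp2b9, Cyp2f2, Cyp2t4, Cyp2ab1, Cyp2r1, Cyp2u1, Cyp2e1 and the Cyp2c genes Cyp2c55, Cyp2c65, Cyp2c66, Cyp2c39, Cyp2c67, Cyp2c37, Cyp2c54 and Cyp2c50. No Ugt gene and no Cyp3a gene is among them. Cyp2b9 counts here by its midpoint, although 62.5% of the fragment ends inside it were PAD in thymus.

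Between ESCs and ACs, 10 genes were PAD in ESCs only (10.6%, against 17.2%) and 7 in ACs only (7.45%, against 5.45%). The first set was 5 Cyp2c genes with Cyp2b9, Cyp2f2, Cyp2t4, Cyp2u1 and Cyp2e1. The second was Cyp2d26 and the 6 genes from Cyp4a12b to Cyp4b1. The second set lay mostly in a single cluster, while the first came from 4 loci. Without the Cyp2c cluster the first became 6.25%, and without the Cyp4x1 to Cyp4b1 cluster the second became 1.16%. Between ACs and thymus, 25 genes were PAD in ACs only (26.6%, against 15.7%), of which 15 were Cyp4 genes, and 3 in thymus only (3.19%, against 6.51%). Of the members PAD in ACs, 37.9% were non-PAD in thymus, against 44.9% of all genes PAD in ACs.

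NPCs differed from the other cultures in both directions. Relative to ESCs, 18 genes were PAD in NPCs only (19.1%, against 29.5%), among them the 9 Cyp2d genes, and 12 in ESCs only (12.8%, against 6.72%), namely 11 Cyp2c genes and Cyp2b9. Relative to ACs, 15 genes were PAD in NPCs only (16.0%, against 39.0%) and 6 in ACs only (6.38%, against 4.58%), and all 6 were Cyp2c genes.

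Most clusters were either wholly inside or wholly outside a PAD in a given cell type. The Ugt1, Ugt2, Cyp3a and Cyp4f clusters had a common call for all members in every cell type, which makes 4 of 9. A border divided members of 3 clusters in ESCs, 1 in NPCs and 3 in ACs, with 3 in thymus. The members called PAD lay in 14 different PADs in ESCs, 15 in NPCs and 13 in ACs, with 8 in thymus. For those in PADs the median length of the PAD was 2277 kb in ESCs, 3931 kb in NPCs, 2043 kb in ACs and 1102 kb in thymus, beside 2383, 3709, 2542 and 3124 kb for all genes in PADs. These medians cover different members in each cell type. Where members were PAD in all 4, thymus had the longest PAD around the Ugt2 genes (12490 kb) and Cyp4v3 (4461 kb). It had the shortest around the Ugt1 genes (693.5 kb), Cyp2a4 to Cyp2a12 (834.1 kb) and Cyp2j13 to Cyp2j6 (1245 kb). Around the Cyp3a cluster the thymus PAD (1102 kb) was neither the longest nor the shortest. The median distance to a border for members in PADs was 408.4 kb in ESCs, 792.9 kb in NPCs, 414.1 kb in ACs and 250.5 kb in thymus, beside 476.1, 761.5, 486.7 and 521.5 kb for all genes in PADs.

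The promoters of these genes are poor in CpG, which the rule did not use. In the 250 bases before the start of the longest transcript, the median was 2 CpG for members and 9 for all genes. More than 10 CpG were found in 3 members (3.19%), against 46.4% of all genes. They were Cyp2u1 with 12, Cyp2r1 with 16 and Cyp4v3 with 17, all solitary genes that act on fatty acids or vitamin D. CpG content varied little with the call, with medians between 1 and 2 among members in PADs and among those outside in each cell type.

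**Figure D4:**
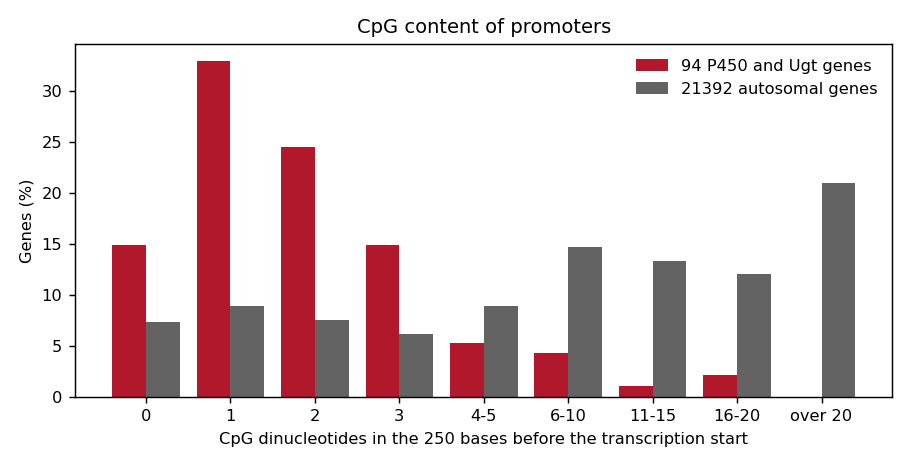
Percentage of genes (vertical axis) by the number of CpG dinucleotides in the 250 bases before the transcription start (horizontal axis) for the 94 members (red) and 21392 autosomal genes with a full promoter sequence (grey). The members pile up between 0 and 3, with the peak of 33.0% at 1 CpG, while 21.0% of all genes have over 20.

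The promoters of 4 genes show the range (mm9, 5′ to 3′ on the strand of the gene, with every CpG in capitals). Cyp3a11 and Ugt2b1 were PAD in the 4 cell types, Cyp2e1 in ESCs and NPCs, and Cyp2r1 in all but thymus, so the CpG-rich promoter of Cyp2r1 and the CpG-poor promoter of Cyp3a11 were both within PADs in 3 cell types.
Cyp3a11 chr5:146691541-146691790, minus strand: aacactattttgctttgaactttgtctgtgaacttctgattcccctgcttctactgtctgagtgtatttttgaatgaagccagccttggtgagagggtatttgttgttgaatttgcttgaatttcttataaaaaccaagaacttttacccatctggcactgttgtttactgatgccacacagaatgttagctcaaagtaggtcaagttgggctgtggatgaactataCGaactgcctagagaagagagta
Ugt2b1 chr5:87355556-87355805, minus strand: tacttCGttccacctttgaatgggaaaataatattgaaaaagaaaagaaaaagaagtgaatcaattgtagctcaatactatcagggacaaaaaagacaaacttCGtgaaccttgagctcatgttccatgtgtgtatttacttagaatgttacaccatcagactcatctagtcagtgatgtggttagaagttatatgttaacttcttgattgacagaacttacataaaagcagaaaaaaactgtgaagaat
Cyp2e1 chr7:147949388-147949637, plus strand: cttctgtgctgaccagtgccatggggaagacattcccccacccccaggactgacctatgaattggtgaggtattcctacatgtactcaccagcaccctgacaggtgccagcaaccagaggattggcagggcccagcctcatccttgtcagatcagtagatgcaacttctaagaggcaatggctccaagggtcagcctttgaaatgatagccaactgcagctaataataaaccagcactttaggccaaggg
Cyp2r1 chr7:121706487-121706736, minus strand: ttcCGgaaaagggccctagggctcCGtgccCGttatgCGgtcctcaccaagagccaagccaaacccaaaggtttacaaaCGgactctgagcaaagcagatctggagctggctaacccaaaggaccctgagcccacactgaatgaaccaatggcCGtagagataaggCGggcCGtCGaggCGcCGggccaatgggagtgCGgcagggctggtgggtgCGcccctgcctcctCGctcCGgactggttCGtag

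The 91 members with at most 10 CpG were PAD in 72.5% in ESCs, 79.1% in NPCs and 70.3% in ACs, with 47.3% in thymus. The 11468 autosomal genes with at most 10 CpG, members included, were PAD in 51.3%, 68.5%, 42.2% and 34.4%. Genes with over 10 CpG were PAD in 41.2%, 70.3%, 26.4% and 15.8%. Low CpG content thus went with more PAD calls over all genes except in NPCs. Counted gene by gene, the members stood above the CpG-poor genes in every cell type. With each locus of the 94 members counted once, the thymus share was 33.3%, below the 34.4% of CpG-poor genes. The shares by locus in ESCs (66.7%), NPCs (77.8%) and ACs (55.6%) remained above those of CpG-poor genes. Whether CpG content has a part in the members' calls was not tested.

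Of the letter motifs searched on both strands, TATAAA was found in 27 member promoters (28.7%, against 12.2% of all promoters), among them that of Cyp3a11. AGGTCA, the letters that many nuclear receptors bind, was found in 26 (27.7%, against 12.4%), including Cyp3a11, Cyp2e1, Cyp4a14 and Ugt2b5. In PADs in thymus 29.5% of member promoters held AGGTCA, and outside PADs 26.0%, and in ACs the order was turned, with 25.8% and 32.1%. TATAAA was found in 23.2% of member promoters in PADs and 44.0% outside in ESCs, 26.7% and 36.8% in NPCs, and 20.5% and 36.0% in thymus, but in 28.8% and 28.6% in ACs. Over all genes TATAAA was instead more frequent in PADs in ESCs (14.7%, 10.1% outside), ACs (18.2% and 9.07%) and thymus (20.4% and 9.42%). In NPCs the shares of all genes were 12.3% and 12.2%. Within thymus PADs the members' share was thus near that of all genes. Members of a cluster share sequence, so these shares are a description. The MfeI site CAATTG itself occurred in 9 (9.57%, against 3.38%), at 13.0% in PADs and 0.0% outside in ESCs but 5.33% and 26.3% in NPCs.

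Gene density, members included, and base composition in the windows around the members were near those of all genes. In the 1 Mb around a member the median was 19.5 protein-coding genes, against 17.0 for all genes. This count includes the other members of a cluster, so it does not give the density of the surroundings alone. The median GC was 43.05%, against 44.26%, and the median number of fragment ends was 132.5, against 133.0. Within the loci, however, fewer of the MfeI sites of the reference were listed as fragment ends, 411 of 1580 (26.0%), against 41.2% on the autosomes. The share was 19.5% in the Cyp2c cluster, 20.4% in the Cyp3a cluster and 21.2% in Ugt1. In total 21 members have no fragment end inside the gene, and 23 (24.47%, against 18.9% of all genes) lie over 10 kb from the nearest. What this does to the calls was not tested, but with those 23 genes left out 54 of the remaining 71 were PAD in ESCs, 58 in NPCs and 51 in ACs, with 33 in thymus.

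Other genes of the same metabolism did not all share the pattern. Of 22 other P450 genes, 5 were PAD in ESCs (22.7%), 16 in NPCs and 4 in ACs (18.2%), with 5 in thymus (22.7%), which is below all genes in ESCs and ACs and near them in NPCs (72.7%) and thymus. Cyp7a1 and Cyp7b1, hydroxylases of bile acid synthesis, and Cyp20a1 were PAD in the 4 cell types. Cyp1a1 and Cyp1a2, the targets of the aryl hydrocarbon receptor, were PAD in NPCs only, like 24.4% of all genes.

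Of 25 partners and regulators, 9 were PAD in ESCs (36.0%), 15 in NPCs (60.0%) and 2 in ACs (8.0%), with 3 in thymus (12.0%), all below the share of all genes. Por, the reductase that feeds electrons to P450 enzymes, was PAD in NPCs only, as was Hnf4a, a regulator of liver genes. This is the pattern of 24.4% of all genes. Nr1i3, which encodes CAR, was among the genes PAD in no cell type, as were Foxa2, Foxa3, Alas1 and Nr0b2. Foxa1 was PAD in all 4, and Ahr in all but NPCs.

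Of 95 entries for other conjugating and oxidizing enzymes and transporters, 61 were PAD in ESCs (64.2%), 81 in NPCs (85.3%) and 44 in ACs (46.3%), with 27 in thymus (28.4%), and 22 were PAD in all 4. This list lies between the members and all genes in ESCs, ACs and thymus. Tandem families made up most of the 22, with the sulfotransferases Sult2a1 to Sult2a6, Ugt3a1 and Ugt3a2, the transporters Slco1a1, Slco1a4, Slco1a5, Slco1a6 and Slco1b2, and Abcb1a and Abcb1b, which encode P-glycoprotein. Gstm1 to Gstm7, a cluster of glutathione transferases, were instead PAD in ESCs and NPCs and non-PAD in ACs and thymus.

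**Figure D5:**
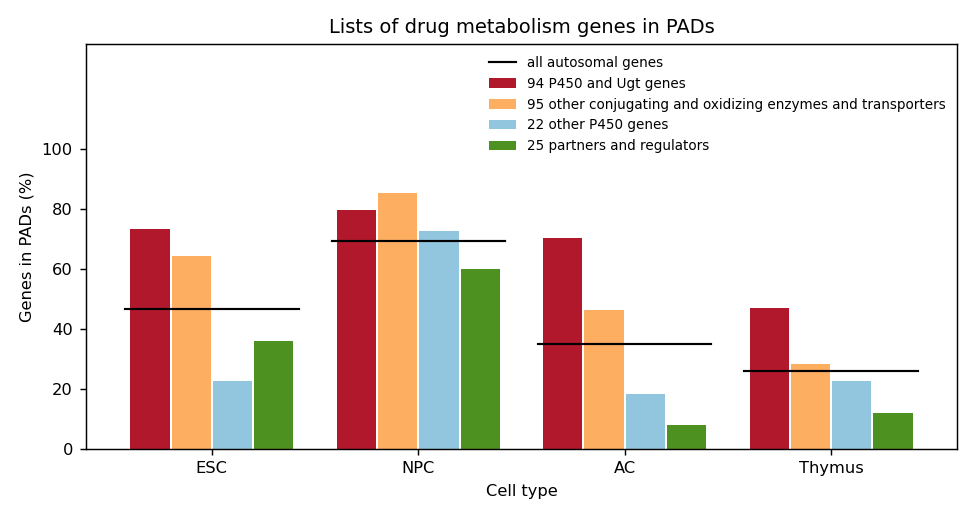
Percentage of genes called PAD (vertical axis) in each cell type for the members and for 3 lists of related genes, with the share of all autosomal genes as a black line. Partners and regulators are lowest in ACs (8.0%) and thymus (12.0%), and other conjugating and oxidizing enzymes and transporters are highest in NPCs (85.3%).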

How the data were processed

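Per the labels, the authors mapped sat4C reads to mm9 without the Y chromosome, and per their methods they binned reads at each fragment end, ran a hidden semi-Markov model (mhsmm in R) on every replicate and took the call of most replicates, using all reads pooled where replicates tied. The aligner was not given in the labels or methods. The deposited values are words (PAD or non-PAD) in 4 columns, and 0 columns belong to single replicates. Depth and replicate error are therefore unknown, and no test was made.

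A fragment end was taken at the start of its row and a gene at the midpoint of its longest transcript, with the call of the nearest end. Of 21418 autosomal protein-coding genes, 21 lay outside the called sequence. Borders were set midway between ends of different calls. According to the paper, cell-to-cell differences keep PAD borders from being defined exactly, so the positions given are those of the calls. Their error is unknown. Sequences were read from NCBIM37 (mm9). The placement of genes, the domains and the clusters were tested on simulated calls. Python 3.11.15, numpy 2.4.6, pandas 2.3.3 and matplotlib 3.10.9 were used.

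The members, the 3 lists of related genes and the alternatives were chosen with earlier results of these data known. The lists are other P450 genes, partners and regulators (among them the redox partners, nuclear receptors and liver transcription factors), and other conjugating and oxidizing enzymes and transporters. In the last list Ces5a has 2 entries, and Abcb10 and Abcb11 entered by their prefix. Named genes are the first and last gene of each cluster, solitary genes, genes that differ from most of their cluster, genes that hold a border, and genes with well-known roles. Cyp2 genes between these were named after their calls were seen. Neighbors were named at the borders of domains.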

Additional observations from a re-analysis of the deposited data

How the results depend on the processing

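Counts of members in PADs were recomputed under 9 other placements or definitions, 8 of them listed at the start and the intervals as deposited added later. They stayed within 1.5 times the main count in all 36 comparisons. In ESCs, NPCs and ACs the main counts (69, 75 and 66) are too high for a rise beyond that factor. There a count could leave the range only by falling. The settings that keep 73 and 71 genes also have a smaller total than the main count. Counting each locus once, by the call of most of its members, lowered the PAD shares. For ESCs the share became 66.7% and for NPCs 77.8%, against 46.6% and 69.4% of all genes. For ACs it became 55.6% (all genes 34.9%), and the thymus share fell from 46.8% to 33.3% (all genes 25.8%). These shares were still above those of all genes, but by less than in the main count. The count that was non-PAD in ESCs and PAD in thymus (1 gene, Cyp2c29) became 0 with start sites in place of midpoints and 0 with any overlap of the gene body, and 0.0% where each locus was counted once by most of its members. The 7 genes that were PAD in ACs and non-PAD in ESCs became 4 by the majority of fragment ends inside the gene, which leaves 73 genes. The 10.6% that were PAD in ESCs and non-PAD in ACs became 16.7% with each locus counted once. Leaving out the Cyp2c cluster gave 6.25% for the latter and 0.0% for genes PAD in thymus and not in ESCs, and leaving out the Cyp4x1 to Cyp4b1 cluster gave 1.16% for genes PAD in ACs and not in ESCs. The cause was not tested. Clusters with a common call numbered 4 of 9, 5 of 11 with gaps under 200 kb and 8 of 13 where no other gene may lie between. In all, 274 of 283 comparisons stayed within 1.5 times. Most of these comparisons left out a single locus, often a solitary gene, whose loss can hardly change a share. No paired analysis was possible because the calls are 1 consensus column for each cell type, and for the same reason no replicate could be left out. Depth is unknown, so weakly supported calls cannot be told from strong ones.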
